A study of Mus musculus with 13 samples.

Results

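The report covers 10 genes that restrain mitogen-activated protein kinase (MAPK) signalling or act within it, out of 35906 genes summed from the transcript tables. They were taken as a listed set: the dual-specificity phosphatases Dusp1, Dusp2, Dusp4, Dusp5, Dusp6 and Dusp10, the Sprouty genes Spry1 and Spry2, the related Spred2, and the kinase gene Map2k3. This set and the pathway lists used below were chosen with earlier results of these data known. Counts of their genes beside the shares of all genes are therefore descriptions and no test of the sets. RNA sequencing was performed on M2 CD4SP thymocytes, the CD69- MHCI+ stage of CD4 single-positive cells that is the most mature in the thymus, sorted by flow cytometry from 1 mouse per library. All 13 mice carried the Lm54 TCR transgene, which recognizes a peptide of listeriolysin O (LLO) on I-Ab, on a Rag1-/- background. Control mice (labelled Lm54 Rag1-/- Ctsl fl/fl and WT) gave 4 unstimulated libraries and 2 libraries after 4 h of stimulation, and ΔTEC mice (labelled Lm54 Rag1-/- CtsldeltaTEC) gave 5 and 2. Stimulated cells had been exposed to plate-bound LLO:I-Ab monomer at 1 µg/ml with soluble anti-CD28 at 250 ng/ml for 4 h, and the labels name no treatment for the others. In ΔTEC mice Foxn1-cre removes the protease gene Ctsl from thymic epithelial cells, so the thymocytes measured here were selected on an altered epithelium and were not themselves the target of the deletion. The age of the mice is not given in the labels.

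Engagement of the TCR activates the kinases ERK, JNK and p38, each switched on by phosphorylation of a threonine and a tyrosine in its activation loop. Dual-specificity MAPK phosphatases remove both phosphates. Dusp1, Dusp2, Dusp4 and Dusp5 encode nuclear enzymes that are typically induced as early response genes, Dusp6 encodes a cytoplasmic enzyme selective for ERK, and Dusp10 encodes an enzyme directed at JNK and p38. Sprouty and Spred proteins act further upstream and dampen the RAS to RAF step. Map2k3 differs from the others because its product, MKK3, phosphorylates and activates p38. In T cells several of the phosphatase and Sprouty genes are known as feedback regulators whose levels follow the strength and timing of TCR signals.

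Promoter sequences show where the best known early response motifs lie in these genes. RefSeq promoters (GRCm38.p6, 250 bases before to 50 bases after the start site) were found for 9 of the 10 genes, all but Dusp4. Those of Dusp1, Dusp2, Dusp5 and Dusp6 held at least 1 match to the motifs searched on both strands and are printed 5′ to 3′ in the direction of the gene, with the matches in capitals.
Dusp1, chr17:26508423-26508722, minus strand: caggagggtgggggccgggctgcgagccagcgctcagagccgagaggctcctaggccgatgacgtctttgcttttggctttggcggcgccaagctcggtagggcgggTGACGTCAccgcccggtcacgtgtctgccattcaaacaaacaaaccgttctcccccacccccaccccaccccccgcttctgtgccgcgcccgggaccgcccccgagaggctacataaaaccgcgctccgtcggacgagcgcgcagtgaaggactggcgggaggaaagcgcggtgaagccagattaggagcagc
Dusp2, chr2:127335909-127336208, plus strand: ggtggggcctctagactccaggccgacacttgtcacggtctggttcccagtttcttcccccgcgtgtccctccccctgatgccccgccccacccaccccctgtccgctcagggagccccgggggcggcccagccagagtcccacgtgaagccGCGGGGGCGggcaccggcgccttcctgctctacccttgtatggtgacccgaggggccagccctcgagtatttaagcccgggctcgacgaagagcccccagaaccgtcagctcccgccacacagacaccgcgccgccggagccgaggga
Dusp5, chr19:53528895-53529194, plus strand: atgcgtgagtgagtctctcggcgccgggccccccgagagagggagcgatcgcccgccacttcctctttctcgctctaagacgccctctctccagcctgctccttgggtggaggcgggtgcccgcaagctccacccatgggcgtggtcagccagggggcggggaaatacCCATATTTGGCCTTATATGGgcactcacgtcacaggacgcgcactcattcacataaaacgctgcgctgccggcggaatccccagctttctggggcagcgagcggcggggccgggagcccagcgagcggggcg
Dusp6, chr10:99262981-99263280, plus strand: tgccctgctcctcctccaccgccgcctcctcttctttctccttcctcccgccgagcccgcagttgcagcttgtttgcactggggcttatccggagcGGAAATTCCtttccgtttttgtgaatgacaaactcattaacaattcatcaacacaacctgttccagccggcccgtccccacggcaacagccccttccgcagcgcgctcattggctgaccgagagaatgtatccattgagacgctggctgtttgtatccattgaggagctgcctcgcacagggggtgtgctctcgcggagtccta

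The Dusp1 promoter holds the cyclic AMP response element TGACGTCA 143 bases before the start site, a motif found in 1.79% of 32851 promoters. Dusp5 carries 2 adjacent CArG boxes, the core of the serum response element, which begin 82 and 72 bases before its start site, and 1.63% of all promoters hold at least 1. An EGR-type motif, GCGGGGGCG, begins 98 bases before the Dusp2 start site and occurs in 2.91% of all promoters. The match in Dusp6 is the NF-kB motif GGAATTTCC read on the opposite strand, 154 bases before the start site, and it occurs in 0.317% of promoters. The CArG and GCGGGGGCG searches were added after the promoters had been read. No promoter of the 9 held AP-1 (TGANTCA, 7.81% of all promoters), ETS (CCGGAAGT, 3.89%), EGR in the form GCGTGGGCG (0.612%), the serum response element in the forms CATATTAGG (0.113%) and CATATATGG (0.174%) or NF-kB in the form GGGATTCCC (0.353%). The motifs overlap none of the others in these 4 promoters. A match is only a string of letters and was not tested as a binding site.

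Depth ranged from 25692380 to 39127833 estimated counts in the unstimulated libraries and from 8085463 to 27184520 in the stimulated ones. The 8 CD4SP markers were all expressed, but their summed level in unstimulated cells was lower in ΔTEC mice, at 4369 to 4694 CPM (counts scaled to a common library size) against 5408 to 5888. Among them, those without overlap between the genotypes were Cd4 (1004 to 1053 against 1128 to 1156 CPM), Zbtb7b (223 to 307 against 324 to 406), Ccr7 (448 to 517 against 554 to 669.9) and S1pr1 (396 to 584 against 687 to 893). All of these were lower in ΔTEC cells, whereas Cd3e lay higher with overlap (597 to 679 against 433 to 634). The share of all genes that separate in this way was not counted, so these markers are a description only. Of the other cell types, the erythroid list summed to 27.6 to 113 CPM in unstimulated ΔTEC and 30.3 to 59.8 in unstimulated control libraries. Myeloid, B cell and epithelial lists summed to at most 24.6, 0.835 and 15.1 CPM in any library, the last mainly Epcam, with Foxn1 at no more than 0.0777. The summed DP or CD8 lineage list (Cd8a, Cd8b1, Rag1, Rag2, Dntt and Ptcra) was higher in ΔTEC cells, at 217 to 284 CPM against 48.7 to 71.9 unstimulated and 52.7 to 52.9 against 15.0 to 17.3 stimulated. Cd8a, Cd8b1 and Dntt carried it in unstimulated cells, while Rag1, Rag2 and Ptcra overlapped. In stimulated cells Cd8a, Cd8b1 and Rag1 lay higher and Dntt overlapped. Rag2 (0.06323 to 0.09028 against 0.3495 to 0.3971 CPM) and Ptcra (0.0 to 0.06323 against 0.1165 to 0.3971) went the other way there without overlap. The regulatory T list (Foxp3, Il2ra and Ikzf2) was higher in ΔTEC cells through Il2ra, at 11.2 to 16.8 CPM against 7.96 to 10.3 unstimulated and 775 to 815 against 687 to 750.1 stimulated, with Foxp3 at no more than 1.15 CPM in any library. Ikzf2 of that list went the other way without overlap, at 2.91 to 4.21 against 4.83 to 6.93 CPM unstimulated and 11.2 to 11.3 against 15.8 to 19.1 stimulated. The list of 7 activation genes overlapped before stimulation, at 182 to 278 against 197 to 299.9 CPM, and was higher in ΔTEC cells after it, at 11890 to 12390 against 9336 to 10630 CPM, although Il2 within it was lower (3.07 to 5.75 against 50.7 to 54.4). Ctsl is no check of the genotype because it is deleted in other cells, but in the sorted unstimulated cells it was higher in ΔTEC mice without overlap, at 11.4 to 17.9 against 6.31 to 8.84 CPM. After stimulation it was at 6.20 to 6.68 against 3.30 to 6.62 CPM, with overlap. The part of these differences in the genotype results below was not tested. Y-linked transcripts (Ddx3y, Eif2s3y, Kdm5d and Uty, mean log2 CPM) were present in all 5 unstimulated ΔTEC libraries, at 6.25 to 6.69, but in only 1 of 4 unstimulated controls, mouse 3, at 6.44 against -1.08 to -0.69. In stimulated cells they were present in 1 of 2 libraries of each genotype. In these bulk samples fewer cells of a type and less RNA per cell cannot be told apart.

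The unstimulated libraries carried 2 dates in their file names, and 1 control (mouse 4) and 2 ΔTEC libraries (mice 1 and 3) had the earlier one. These 3 libraries stood apart for several of the genes. Dusp1, at 129 to 270 CPM in the 3 earlier libraries, was at 15.9 to 37.8 in the 6 later ones. Within each genotype, Dusp1, Dusp2, Dusp5, Dusp6, Dusp10 and Spry1 were all higher in every earlier library than in any later one, which makes 6 of the 9 genes tested, against 7.06% of all 13152 genes. Genotype results in unstimulated cells are therefore also given within the later date. The stimulated libraries share a later date of their own, so stimulation and date cannot be told apart. Neither the labels nor the paper describe a 4 h culture without antigen for the unstimulated cells. Effects of the culture and of antigen with anti-CD28 therefore cannot be told apart either.

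**Figure D1:**
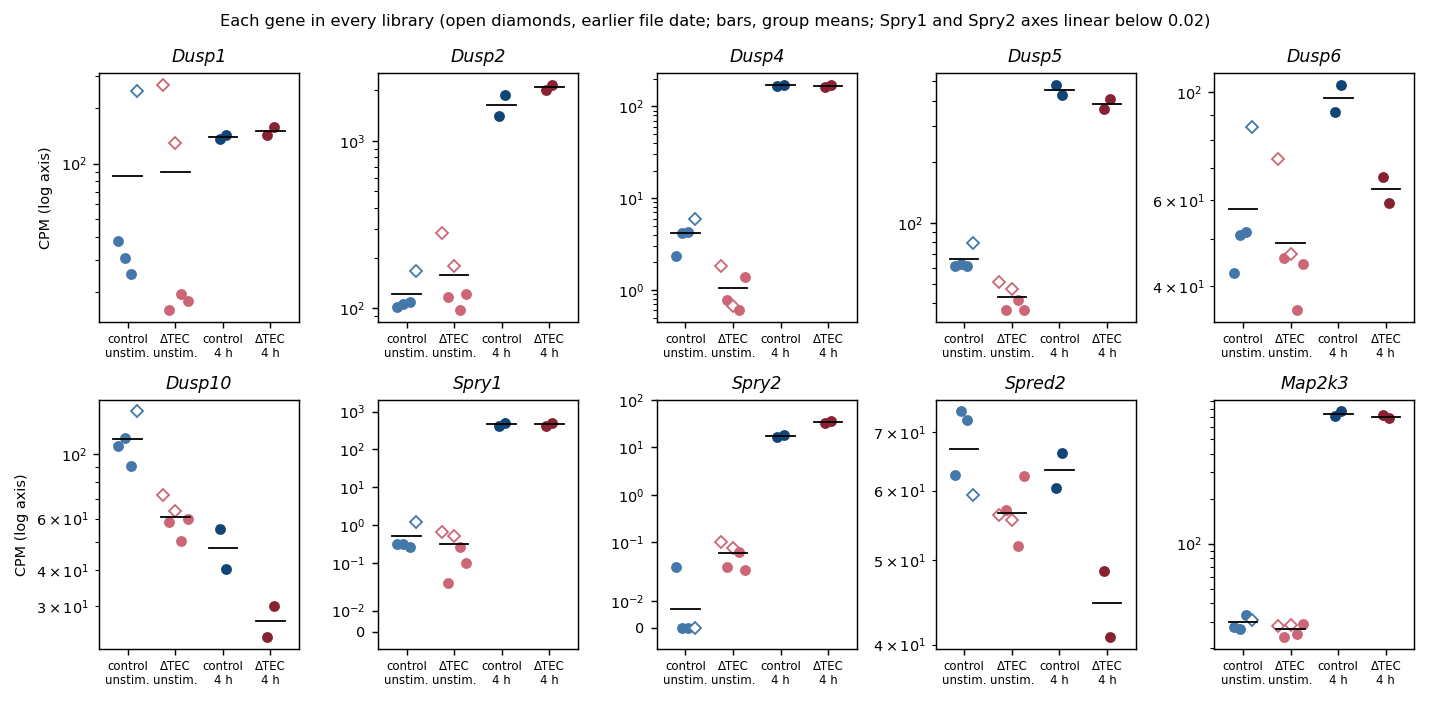
CPM of each gene (vertical log axis, linear below 0.02 for Spry1 and Spry2) in the 13 libraries by genotype and stimulation. Points are single mice, open diamonds are the 3 libraries of the earlier file date and bars are group means. Dusp10 is lower in every ΔTEC library than in any control library of the same state, and Spry1 rises from at most 1.22 CPM to at least 415.

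In unstimulated cells 4 of the 9 genes that passed the count filter were lower in ΔTEC mice and 0 were higher, while 8.36% of all genes tested were lower and 6.42% higher by the same rule (edgeR quasi-likelihood test, adjusted p under 0.1). Of all genes called, 43.4% were higher, against 56.8% when library totals replaced the TMM scaling. The 4 were Dusp4, Dusp10, Dusp5 and Spred2. With file date as a factor 6 of the 9 were lower, Dusp1 and Spry1 being added, while 11.2% of all genes were lower and 9.42% higher in that fit. The median log2 fold change of the 9 genes was -0.24, against 0.01 over all genes. Spry2 was not tested, since it had 1 count in all 4 control libraries together and 10 counts in the 5 ΔTEC libraries.

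Dusp4, a nuclear phosphatase of ERK and JNK at chr8:34807297-34819894 (GRCm38, plus strand), showed the largest of these differences. It was at 2.32, 4.14, 4.24 and 5.94 CPM in control mice 1 to 4 and at 1.85, 0.786, 0.670, 0.600 and 1.37 CPM in ΔTEC mice 1 to 5, so the groups did not overlap. Levels were low in both genotypes. Dusp4 was 3.87-fold lower in ΔTEC cells (log2 fold change -1.95 ± 0.35 SE, adjusted p = 0.00426 by edgeR). Within the later date the difference was -1.93 (edgeR adjusted p = 0.00805). With Y-linked expression as a covariate it was -1.90 and was not called (adjusted p = 0.129 by edgeR).

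Dusp10, the phosphatase of JNK and p38 at chr1:184013302-184075636 (plus strand), was at 106.3, 113, 91.1 and 140.0 CPM in control mice 1 to 4. In ΔTEC mice 1 to 5 it was at 72.3, 58.6, 63.7, 50.2 and 59.7 CPM. Every control library was above every ΔTEC library. The level was 1.85-fold lower in ΔTEC cells (log2 fold change -0.89 ± 0.13 SE, edgeR adjusted p = 0.000874). It differed by -0.88 within the later date (adjusted p = 0.000612 by edgeR) and by -0.55 with the Y-linked covariate, where it was not called (edgeR adjusted p = 0.186).

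Dusp5, a nuclear phosphatase selective for ERK at chr19:53529109-53542431 (plus strand) with the paired CArG boxes shown above, was at 61.4, 62.8, 61.3 and 79.1 CPM in controls. In ΔTEC mice it was at 51.1, 37.3, 47.3, 41.4 and 37.0 CPM, without overlap. The log2 fold change was -0.63 ± 0.12 SE (1.54-fold lower, edgeR adjusted p = 0.00462). The difference was -0.68 within the later date (edgeR adjusted p = 0.0005) and -0.49 with the Y-linked covariate (not called, edgeR adjusted p = 0.307).

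Spred2, an inhibitor of RAS and RAF signalling at chr11:19924375-20024026 (plus strand), was at 62.5, 73.9, 72.2 and 59.3 CPM in controls and 56.3, 57.0, 55.6, 51.8 and 62.4 CPM in ΔTEC mice. The groups overlapped, and the 1.18-fold difference (log2 -0.24 ± 0.08 SE, edgeR adjusted p = 0.0884) lay close to the threshold. It was lost in 15 of 24 alternative settings. Within the later date it was -0.28 (edgeR adjusted p = 0.0867), and with the Y-linked covariate -0.35 (not called, edgeR adjusted p = 0.29).

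The other genes were not called in unstimulated cells. Dusp2, at chr2:127336159-127338376 (plus strand), was at 102, 107, 109 and 168 CPM in controls and 281, 117, 180, 97.5 and 121 CPM in ΔTEC mice, with the high values in the earlier libraries. Its log2 fold change was 0.39, with a 95% interval of -0.23 to 1.01. Dusp6, at chr10:99263231-99267489 (plus strand), was at 42.5, 51.0, 51.7 and 85.0 CPM in controls and 72.9, 45.6, 46.5, 35.7 and 44.5 CPM in ΔTEC mice, with overlap. The interval for Dusp6 was -0.72 to 0.26. Map2k3, at chr11:60932033-60952811 (plus strand), was the steadiest, at 27.0 to 33.5 CPM in controls and 23.7 to 28.9 CPM in ΔTEC mice, with an interval of -0.35 to 0.05. Within the later date the log2 fold changes were 0.08 for Dusp2, -0.21 for Dusp6 and -0.18 for Map2k3 (not called, edgeR adjusted p = 0.626, 0.306 and 0.353).

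**Figure D2:**
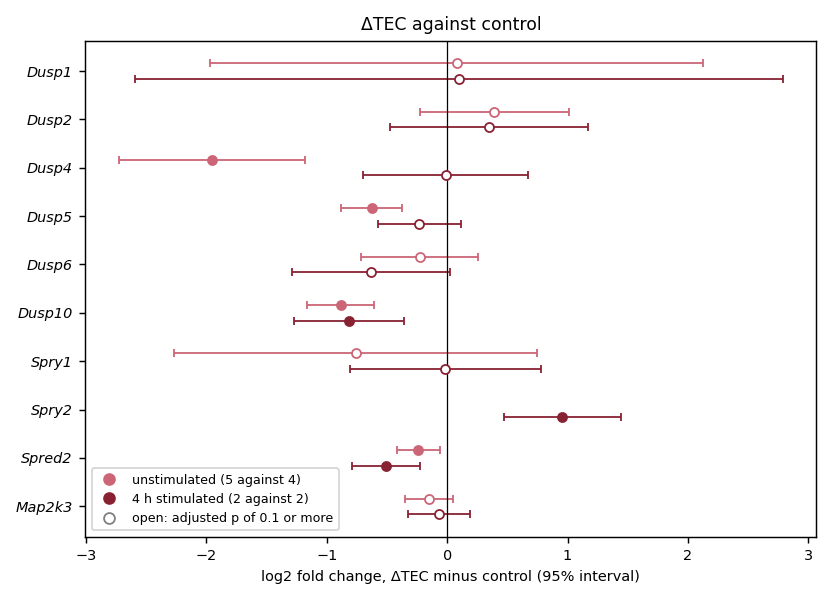
Log2 fold change of ΔTEC against control cells (horizontal axis, 95% interval) for each gene, unstimulated and after 4 h. Filled points passed an adjusted p of 0.1. Dusp10 lies near -0.9 in both states, Dusp4 is near -2 in unstimulated cells and near 0 after stimulation, and the interval of Dusp1 is the widest.

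Dusp1, at chr17:26505590-26562128 (minus strand), followed the file date. In controls it was at 37.8, 30.7, 25.2 and 249 CPM, and in ΔTEC mice at 270, 15.9, 129, 19.6 and 17.9 CPM, the 3 values above 100 being those of the earlier date. Over all 9 libraries the genotypes differed by 0.08 ± 0.94 SE on the log2 scale (edgeR adjusted p = 0.977). Among the 6 later libraries, where the 3 controls were all above the 3 ΔTEC mice, the log2 fold change was -0.81 and was called (edgeR adjusted p = 0.00726). It was -0.65 with date as a factor (edgeR adjusted p = 0.0509) and 2.04 with the Y-linked covariate (not called, edgeR adjusted p = 0.736). The sign for Dusp1 thus depended on how the dates were handled.

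The genes most like Dusp1 across the libraries were Junb and Fos, named here for that likeness. Junb, a subunit of AP-1, was at 581 to 1011 CPM in the 3 earlier libraries and at 67.6 to 142 CPM in the 6 later ones. Fos, its partner, was at 62.0 to 104 CPM and at 3.06 to 18.1 CPM. Egr1, another early response gene, did not share the pattern and overlapped between the dates, at 177 to 429 CPM and 130 to 210 CPM. Among the later libraries, Fos was also higher in the 3 controls, at 6.13 to 18.1 CPM, than in the 3 ΔTEC mice, at 3.06 to 5.21 CPM. The part of the date in these values was not tested further.

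**Figure D3:**
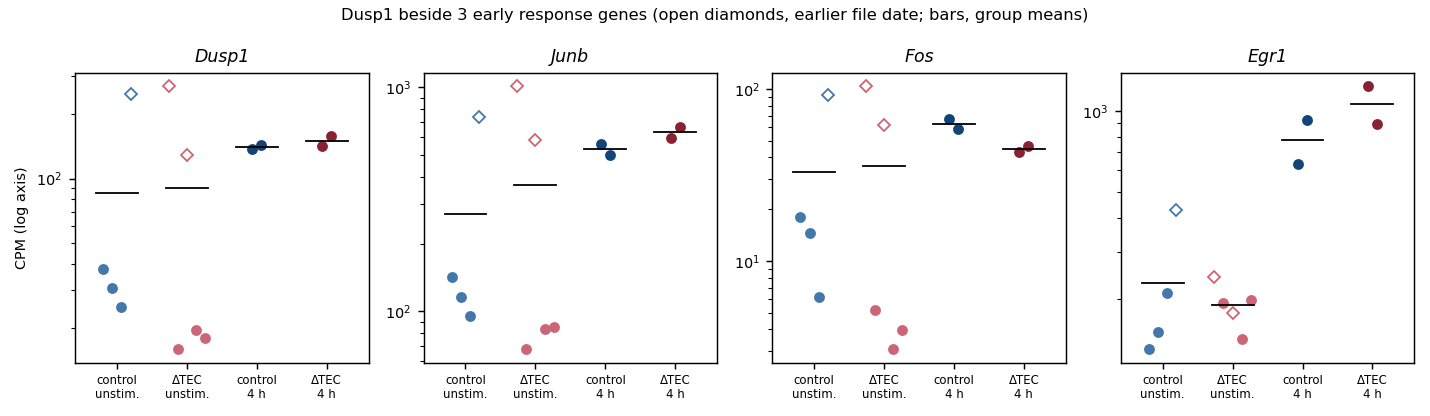
CPM (vertical log axis) of Dusp1 and of the early response genes Junb, Fos and Egr1 in each library by group. Points are single mice, open diamonds are the 3 earlier libraries and bars are group means. The earlier libraries hold the 3 highest unstimulated values of Dusp1, Junb and Fos, while Egr1 overlaps between the dates.

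Sprouty genes were close to silent before stimulation. Spry1, at chr3:37639947-37644598 (plus strand), had 11, 9, 7 and 44 counts in control mice 1 to 4 and 27, 1, 14, 9 and 4 counts in ΔTEC mice 1 to 5. The genotype difference was not called (log2 -0.76 ± 0.69 SE, edgeR adjusted p = 0.564), and at this depth its interval ran from -2.27 to 0.75. With file date as a factor it was called, at -1.09 (edgeR adjusted p = 0.0916). Spry2, at chr14:105891947-105896819 (minus strand), had 1, 0, 0 and 0 counts in controls and 4, 1, 2, 2 and 1 in ΔTEC mice. For each library at 0, counting error alone allows a true level of up to 3 counts.

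In each genotype 8 of the 10 genes differed between 4 h stimulated and unstimulated cells. In control cells 7 of 10 genes rose and 1 fell, against 32.9% of all 14241 genes tested that rose and 34.8% that fell. In ΔTEC cells 6 rose and 2 fell, against 32.9% and 38.2% (edgeR, adjusted p under 0.1). The median log2 fold change of the 10 genes was 3.27 in control and 3.44 in ΔTEC cells, against 0.01 and -0.06 over all genes. Spry2 passed the count filter only through the stimulated libraries, so its rise was fixed by the filter. Of the other 9 genes, 6 rose and 1 fell in control cells and 5 rose and 2 fell in ΔTEC cells, with medians of 2.77 and 3.17, a count added after seeing the data. Of the 13150 genes that also passed in the unstimulated libraries, 31.8% rose and 37.5% fell in control cells and 32.1% and 41.0% in ΔTEC cells. Library totals in place of TMM moved the median of all genes by -0.14 in ΔTEC cells, and no call of the 10 genes changed in that setting.

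Spry1 and Spry2 rose from near 0 to clear expression. Spry1 reached 426 and 508 CPM in control cells and 415 and 510 CPM in ΔTEC cells. From summed counts the ratio to unstimulated cells was 869-fold in control cells (95% counting interval 688 to 1110) and 1490-fold in ΔTEC cells (1150 to 1980). The control ratio rested largely on mouse 4, which gave 44 of the 71 unstimulated counts. The fitted log2 responses of Spry1, 9.70 in control and 10.50 in ΔTEC cells, became 10.57 and 11.79 without the 3 earlier libraries. Spry2 reached 16.9 and 18.7 CPM in control cells and 33.4 and 36.0 CPM in ΔTEC cells. Its ratio rested on 1 unstimulated count in control cells (2310-fold, 412 to 91200) and on 10 in ΔTEC cells (608-fold, 329 to 1270), so the sizes are loosely known. These exact intervals cover counting error alone, since reads without molecular identifiers are not independent molecules.

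The nuclear phosphatases Dusp2, Dusp4 and Dusp5 rose in both genotypes. Dusp4 went to 169 and 172 CPM in control cells and to 164 and 174 CPM in ΔTEC cells, log2 fold changes of 5.35 ± 0.30 SE and 7.27 ± 0.30 SE (edgeR adjusted p = 8.84e-10 and 2.89e-11). Dusp2 went to 1411 and 1869 CPM in control cells and to 2004 and 2169 CPM in ΔTEC cells, increases of 13.5-fold and 13.1-fold. Dusp5 went to 481 and 425 CPM and to 366 and 406 CPM, increases of 6.85-fold and 9.01-fold. All stimulated libraries lay above all unstimulated ones for these 3 genes.

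Map2k3, the only kinase gene of the set, rose with the phosphatases. It was at 719 and 767 CPM in stimulated control cells and at 723 and 695 CPM in stimulated ΔTEC cells, against at most 33.5 CPM before. The log2 fold changes were 4.64 ± 0.11 SE and 4.73 ± 0.10 SE (edgeR adjusted p = 3.5e-13 and 8.6e-14). The other p38 kinase kinase gene, Map2k6, went the other way, from 19.7 to 27.4 CPM in unstimulated libraries to 0.271 to 0.885 CPM after stimulation.

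Dusp6 and Dusp1 responded less. Dusp6 rose in control cells, to 91.3 and 104 CPM (log2 0.76 ± 0.26 SE, edgeR adjusted p = 0.0177), a call lost without stimulated control mouse 6 (0.65, edgeR adjusted p = 0.139). In ΔTEC cells it was at 67.1 and 59.3 CPM and was not called (log2 0.36 ± 0.25 SE, edgeR adjusted p = 0.217), although it was called at 0.64 without the 3 earlier libraries (edgeR adjusted p = 0.000552). This Dusp6 response was also called with a transcript length offset (0.63, edgeR adjusted p = 0.0817), after thinning (0.45, 0.0798) and without unstimulated ΔTEC mouse 1 (0.56, 0.0294). In 21 of 25 alternative settings it was not called. Dusp1 was at 137 and 144 CPM in control and 143 and 158 CPM in ΔTEC cells and was not called in either genotype (log2 0.71 ± 1.07 SE and 0.74 ± 1.02 SE). Without the 3 earlier libraries Dusp1 rose by 2.16 and 3.13 on the log2 scale (edgeR adjusted p = 2.52e-08 and 8.32e-10).

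Dusp10 fell on stimulation in both genotypes, and Spred2 in ΔTEC cells. Dusp10 went to 55.1 and 40.3 CPM in control cells (log2 -1.25 ± 0.19 SE, edgeR adjusted p = 3.34e-05) and to 23.5 and 30.1 CPM in ΔTEC cells (log2 -1.18 ± 0.19 SE, edgeR adjusted p = 4.66e-05). Spred2 was at 60.4 and 66.2 CPM in stimulated control cells, where it was not called (log2 -0.08 ± 0.11 SE), and at 48.6 and 40.8 CPM in ΔTEC cells (log2 -0.34 ± 0.11 SE, edgeR adjusted p = 0.0134). That call was lost without stimulated ΔTEC mouse 7 (-0.25, edgeR adjusted p = 0.166).

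**Figure D4:**
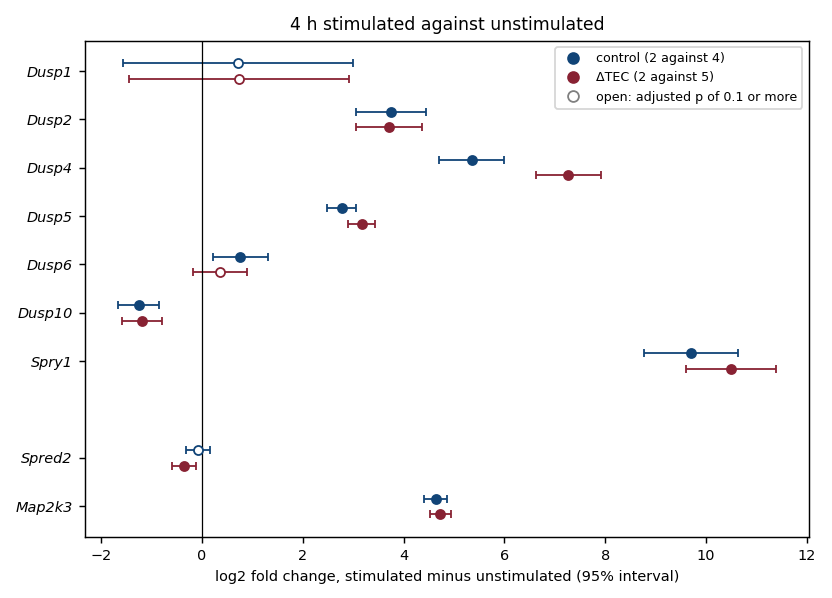
Log2 fold change of 4 h stimulated against unstimulated cells (horizontal axis, 95% interval) in control and ΔTEC mice. Filled points passed an adjusted p of 0.1, and Spry2 is left out because its unstimulated counts are near 0. Spry1, Dusp4, Map2k3, Dusp2 and Dusp5 lie far to the right in both genotypes, and Dusp10 lies to the left.

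Expression per length gives the order of the genes within a group. Dusp2 had the highest mean TPM (transcript abundance corrected for length) in all 4 groups, at 127 ± 32.9 (SD, n = 4) in unstimulated control and 177 ± 89.7 (n = 5) in unstimulated ΔTEC cells, and at 1667 ± 498 and 2193 ± 121 (n = 2 each) after stimulation. Unstimulated control cells followed with Dusp1 at 66.7 ± 83.1 TPM, Dusp10 at 57.3 ± 9.36, Dusp5 at 38.4 ± 4.25 and Dusp6 at 34.0 ± 13.7. The place of Dusp1 rests on mouse 4 of the earlier date, where it was at 191 TPM, above Dusp2 at 176. In control mice 1 to 3 it was at 31.7, 24.5 and 19.7 TPM, below both Dusp10 (47.1 to 56.4) and Dusp5 (35.6 to 37.0). After stimulation Map2k3 was next in control cells, at 583 ± 93.0 TPM, ahead of Spry1 at 248 ± 49.8 and Dusp5 at 243 ± 2.17, which did not differ beyond their spread. The summed mean of the 10 genes went from 373 to 3044 TPM in control cells and from 387 to 3510 TPM in ΔTEC cells.

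After stimulation 2 of the 10 genes were lower in ΔTEC than in control cells and 1 was higher, against 10.6% of all genes lower and 2.77% higher (edgeR, adjusted p under 0.1). Their median log2 fold change was -0.04, beside -0.06 over all genes. Dusp10 was again lower, at 23.5 and 30.1 CPM against 55.1 and 40.3 CPM (log2 -0.81 ± 0.21 SE, 1.76-fold, edgeR adjusted p = 0.0271). Spred2 was lower at 48.6 and 40.8 CPM against 60.4 and 66.2 CPM (log2 -0.51 ± 0.13 SE, edgeR adjusted p = 0.0255). These are other mice than those of the unstimulated comparison, with Y-linked transcripts balanced between the genotypes, and with the Y-linked covariate over 13 libraries the log2 fold changes were -0.78 for Dusp10 and -0.51 for Spred2 (edgeR adjusted p = 0.0315 and 0.0327).

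Spry2 was the 1 gene that was higher in stimulated ΔTEC cells, by 1.94-fold (log2 0.96 ± 0.23 SE, edgeR adjusted p = 0.016). Its 2 values there, 33.4 and 36.0 CPM, lay well above the 16.9 and 18.7 CPM of control cells. Spry1 was at nearly the same level in both genotypes (log2 -0.01, 95% interval -0.81 to 0.78). With 2 libraries per group each call depended on single mice: that of Dusp10 was lost without control mouse 5 (-0.59, edgeR adjusted p = 0.23) or ΔTEC mouse 6 (-0.65, 0.216), that of Spry2 without control mouse 5 (0.88, 0.132) or ΔTEC mouse 7 (0.89, 0.135), and that of Spred2 without control mouse 6 (-0.44, 0.108) or ΔTEC mouse 7 (-0.39, 0.193). Each kept its direction.

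Dusp6 was lower in both stimulated ΔTEC libraries than in both controls, but was not called (log2 -0.63 ± 0.31 SE, edgeR adjusted p = 0.243). When the 4 stimulated libraries were fitted alone it was called at -0.58 (edgeR adjusted p = 0.036), and likewise at -0.58 without the 3 earlier libraries (edgeR adjusted p = 0.0198). Dusp2 lay in the other direction without overlap and was not called (log2 0.35 ± 0.38 SE, edgeR adjusted p = 0.655). Without the 3 earlier libraries 3 of the 10 genes were called lower and 2 higher, beside 10.8% and 5.88% of all genes. Dusp4, Dusp5, Dusp1 and Map2k3 were not called, with intervals of -0.70 to 0.67, -0.58 to 0.11, -2.59 to 2.79 and -0.32 to 0.19. The spread in this fit is shared over the 4 groups, so these intervals also hold the spread of the unstimulated libraries. For Dusp1 that includes the gap between the 2 dates, and the 4 stimulated libraries fitted alone gave 0.15 (not called, edgeR adjusted p = 0.537).

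The response to stimulation differed between genotypes for 1 of the 10 genes, Dusp4, against 1.13% of all genes with a larger log2 response in ΔTEC cells and 4.88% with a smaller one. Of all genes called for this difference, 18.8% had the larger response in ΔTEC cells, and 29.4% by DESeq2. Dusp4 rose from 0.600 to 1.85 CPM to 164 and 174 CPM in ΔTEC cells and from 2.32 to 5.94 CPM to 169 and 172 CPM in controls, and the difference of log2 responses was 1.92 ± 0.44 SE (edgeR adjusted p = 0.0309). Without stimulated control mouse 5 the difference was 1.90 and no gene of the set was called (edgeR adjusted p = 0.121), with 1 gene at an unadjusted p under 0.05. DESeq2 gave 1.99 (adjusted p = 0.0347), and 1.95 was obtained without the 3 earlier libraries (edgeR adjusted p = 0.0152). In that setting 3 of the 10 genes, Dusp4, Dusp1 and Dusp5, had a larger response in ΔTEC cells and 0 a smaller one, beside 1.8% and 3.51% of all genes. For Dusp10 the difference of responses was 0.07, with a 95% interval of -0.46 to 0.61.

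The transcripts counted for each gene were a readout that the choice of genes did not use. Dusp1, Dusp2, Dusp6 and Map2k3 had annotated transcripts without a protein-coding biotype, mostly retained introns or processed transcripts. In unstimulated cells the share of Dusp1 counts on them was 33.5%, 22.2%, 4.52% and 23.1% in control mice 1 to 4 and 28.0%, 6.39%, 37.5%, 6.12% and 8.91% in ΔTEC mice 1 to 5. No difference by genotype was called in a two-sided exact permutation test (0 of 4 at an unadjusted p under 0.05, p = 0.714 for Dusp1, 0.683 for Dusp2, 0.651 for Dusp6 and 0.429 for Map2k3, adjusted p = 0.714 for each). The Dusp2 shares separated by date, at 8.27% to 10.5% in the 3 earlier and 1.93% to 5.82% in the 6 later libraries. With genotypes permuted within each date, an alternative added after seeing the data, again 0 of 4 were called (exact permutation p = 0.483 to 0.933, 60 arrangements), and within the later date the genotypes overlapped for all 4 genes.

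In stimulated cells these shares were higher in ΔTEC mice for Dusp1, Dusp2 and Dusp6, without overlap. Such a separation was common: of 6150 protein-coding genes with enough counts for a share, 39.3% lay higher in both ΔTEC libraries than in both controls and 5.92% lower. Dusp1 had 22.8% and 27.5% of its counts on such transcripts in control cells and 42.7% and 42.5% in ΔTEC cells. For Dusp6 the values were 8.01% and 8.63% against 14.5% and 14.4%, and for Dusp2 5.95% and 8.98% against 10.8% and 11.1%. Map2k3 overlapped, at 7.71% and 9.93% against 9.73% and 12.03%. The share over all protein-coding genes also lay higher, at 10.8% and 12.7% in control and 13.4% and 14.2% in ΔTEC cells, and its part in the 3 genes was not tested. No test was made with 2 libraries per group, since an exact test could not pass the threshold.

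**Figure D5:**
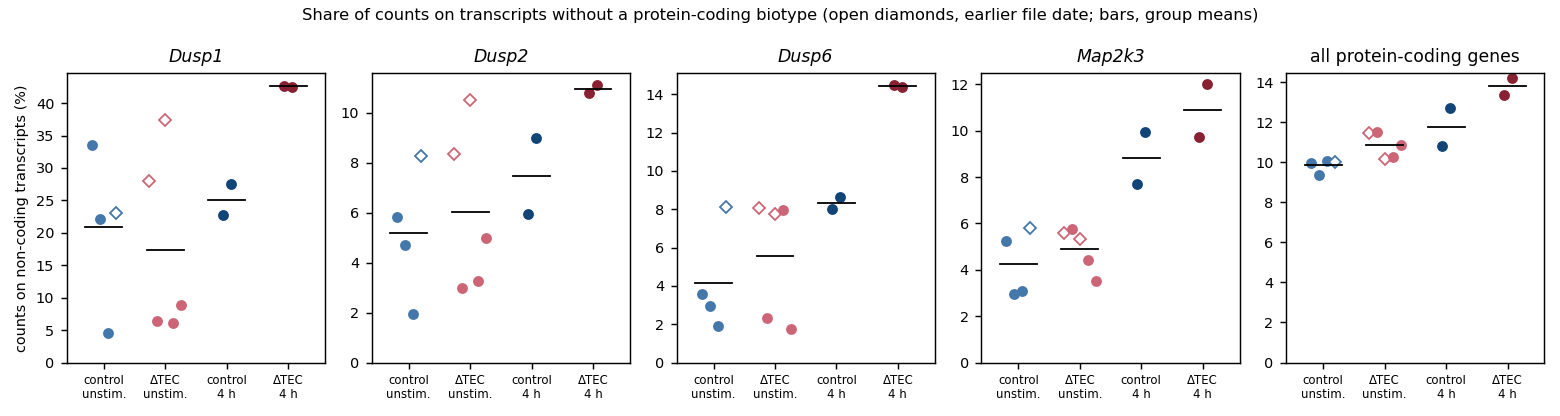
Percentage of counts on transcripts without a protein-coding biotype (vertical axis from 0) for Dusp1, Dusp2, Dusp6, Map2k3 and all protein-coding genes together, by group. Points are single mice, open diamonds are the 3 earlier libraries and bars are group means. After stimulation the ΔTEC libraries lie above the controls for Dusp1 (42.5% and 42.7% against 22.8% and 27.5%), Dusp2 and Dusp6.

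Other genes of the pathway, from lists written for this purpose, were counted in the same fits, and their counts stand beside the shares of all genes given above (8.36% lower and 6.42% higher in unstimulated, 10.6% and 2.77% in stimulated ΔTEC cells). On stimulation 32.9% of all genes rose and 34.8% fell in control cells, and 32.9% and 38.2% in ΔTEC cells. Of the typical MAPK phosphatases outside the set, Dusp7, an ERK phosphatase, was lower in ΔTEC cells both unstimulated (log2 -0.30, edgeR adjusted p = 0.0679) and stimulated (-0.95, 0.00569). Dusp16, which acts on JNK and p38, was higher in stimulated ΔTEC cells, at 51.1 and 34.2 CPM against 24.2 and 26.1 CPM (log2 0.76, edgeR adjusted p = 0.0765). On stimulation Dusp7 fell in both genotypes (log2 -1.64 and -2.28, edgeR adjusted p = 4.62e-07 and 1.38e-08). Dusp16 rose in both, as did Dusp8, which passed the count filter only through the stimulated libraries, while Dusp9 did not pass the count filter. Of the 10 atypical dual-specificity phosphatases tested, 0 were higher and 2 lower in stimulated ΔTEC cells, the latter Dusp28 (-1.32, edgeR adjusted p = 0.0158) and Dusp22 (-0.61, 0.0251). In unstimulated cells, 1 of 9 was higher, Dusp3 (0.85, 0.068), and 1 lower, Dusp22 (-0.28, 0.0866).

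Of the other Sprouty and Spred genes, 3 of 3 rose on stimulation in both genotypes, beside 32.9% of all genes in each. Spry4, a close relative of Spry2, rose by 4.73 and 4.12 on the log2 scale in control and ΔTEC cells (edgeR adjusted p = 1.07e-08 and 1.87e-08). In contrast to Spry2 it was at 13.2 and 19.4 CPM in stimulated control and 11.4 and 7.59 CPM in stimulated ΔTEC cells, a difference that was not called. Spred1 rose by 1.17 and 1.37.

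Other brakes on RAS and MAPK included 2 of 19 genes lower in unstimulated ΔTEC cells and 0 higher, and again 2 of 19 lower and 0 higher after stimulation, which is close to the share of all genes that were lower. Rasa3, a RAS GTPase-activating protein, was lower in both states, by log2 -0.45 unstimulated (edgeR adjusted p = 0.000929) and -0.54 stimulated (0.00359), at 830 to 906 CPM in unstimulated control and 579 to 683 CPM in unstimulated ΔTEC libraries. Ptpn7, a phosphatase of ERK in lymphocytes, was lower in unstimulated ΔTEC cells (-0.29, edgeR adjusted p = 0.0147), and the adaptor gene Dok2 in stimulated ones (-0.69, 0.0573). On stimulation 8 of 19 rose and 6 fell in control cells and 10 rose and 7 fell in ΔTEC cells, with Rasa3 and Dgka, which consumes diacylglycerol, among those that fell. These counts stand beside 32.9% of all genes that rose in each genotype and 34.8% and 38.2% that fell.

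Within the RAS-ERK cascade 4 of 20 genes were lower in unstimulated ΔTEC cells and 0 higher, led by Rps6ka1, which encodes the ERK target RSK1 (-0.41, edgeR adjusted p = 0.00114), and Map2k1, which encodes MEK1 (-0.40, 0.0116). After stimulation 5 were lower, among them Rps6ka1 (-0.56, edgeR adjusted p = 0.0136), and 1 was higher. In the p38 and JNK cascade 2 of 19 were lower and 0 higher in unstimulated ΔTEC cells, the former Map3k5 (-0.75, edgeR adjusted p = 0.00107) and Mapkapk3 (-0.28, 0.0196). After stimulation 5 were lower, led by Map3k4 (-0.84, edgeR adjusted p = 0.00099) and Mapk14, the gene of p38α (-0.55, 0.00376), and 2 were higher.

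Of 14 genes induced through ERK that were tested over the 13 libraries, Fosl1, Lif and Etv4 passed the count filter only through the stimulated ones, which fixes their rise. Of the other 11, 8 rose and 1 fell on stimulation in each genotype, with a median log2 fold change of 1.76 in control and 2.48 in ΔTEC cells, beside 31.8% and 32.1% of genes under the same filter that rose. After stimulation 3 of all 14 were lower in ΔTEC cells and 0 higher, namely Etv5, Fosl1 and Lif. The median log2 fold change of the 14 between the genotypes was nevertheless 0.108, beside -0.055 over all genes. The ETS factor gene Etv5 was at 0.993 and 2.02 CPM against 6.75 and 7.14 CPM (log2 -2.16, edgeR adjusted p = 0.000424), and the AP-1 gene Fosl1 at 2.35 and 2.91 CPM against 10.3 and 8.78 CPM (-1.85, 0.00964). In unstimulated cells 1 of 11 was lower, Etv5 (-0.61, edgeR adjusted p = 0.00903).

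The genes whose profile was most like that of each gene were found by Pearson's r of log2 CPM over the 13 libraries, as a description. The libraries fall into 2 states, so r mostly follows stimulation for the genes that rose. Dusp1 was closest to Junb (r = 0.994), Fos (0.971) and Sertad1 (0.966), with values of 0.994, 0.970 and 0.991 over the 9 unstimulated libraries alone, where the 3 earlier libraries set the range. Dusp2 was closest to Zc3h12a, Nfkbiz and Zfp36l1, Dusp4 to Rcn1, Cd6 and Aprt, and Dusp5 to Chsy1, Pim1 and Srebf2. Dusp10 was closest to Eef2, Aven and Bpgm, Dusp6 to Tex264, Sgta and Actr1b, and Spred2 to Slc16a10, Iqsec1 and Slc4a4. Spry1 was closest to Rrs1, Ube2j2 and Mettl13, Spry2 to Nr4a3, Birc3 and Stx6, and Map2k3 to Psme3, Rrp7a and Tdg.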

How the data were processed

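Transcripts were quantified by the authors with kallisto 0.48 (submitters' processing notes) on an Ensembl transcriptome, and the deposited tables give estimated counts, TPM and effective lengths per transcript. The deposited estimated counts are not normalized, and the deposited TPM are scaled for transcript length and library size. The labels describe polyadenylated RNA and floxed control alleles, the paper rRNA depletion and Ctsl+/+ controls.

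Of 117497 transcripts, 116397 were joined to genes of GENCODE M21 (GRCm38, older than the authors' annotation), and the other 1100 held at most 0.461% of a library. Counts were summed per gene and rounded. In R 4.3.3, edgeR 4.0.16 (TMM, filterByExpr, quasi-likelihood test, Benjamini-Hochberg, threshold 0.1 as in the study) compared the 9 unstimulated libraries, and a 4-group model of 13 libraries gave the other comparisons. CPM are TMM-scaled, and their log2 used a prior count of 2. Standard errors derive from F. Each mouse gave 1 library, and p-values measure the spread between mice. In the 4-group model that spread is shared over the 4 groups. Comparisons of 2 against 2 stimulated libraries therefore rest largely on the spread of the unstimulated libraries, which includes their 2 dates. Intervals of low-count ratios are exact at 95%, and a count of 0 allows up to 3. Transcript shares were tested by exact permutation (scipy 1.17.1). The count tests were tested on simulated data. Alternatives included DESeq2 1.42.0, other normalizations and filters, length offsets, thinning, dates, covariates and leaving out mice. Named genes are all 10, the 2 with the smallest p per pathway list and comparison, and the 3 most similar profiles. The 10 genes and the lists were chosen with earlier results of these data known. A gene of the pathway lists that met this rule is not reported here.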

Additional observations from a re-analysis of the deposited data

Results flagged for a closer look

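For 4 genes, 1 unstimulated control library lay so far from the other 3 that its gap to the nearest, as a share of the whole range of the group, passed the 95% critical value of Dixon's test. Control mouse 4, the only control library of the earlier date, was the highest for Dusp2 at 7.39 log2 CPM against 6.68 to 6.77 in the other controls, for Dusp5 at 6.31 against 5.94 to 5.97, and for Spry1 at 0.37 against -1.59 to -1.35. Control mouse 1 was the highest for Spry2 at -3.31 against -3.79, which is the difference between 1 count and 0. Dusp1 in control mouse 4, at 7.96 against 4.66 to 5.24, fell just short of that value. Of 20 groups examined, chance alone would be expected to flag 1. The response of Dusp4 to stimulation differed between the genotypes by 1.92 on the log2 scale (edgeR adjusted p = 0.0309), with the unstimulated level lower in ΔTEC cells and stimulated levels of 164 and 174 CPM in ΔTEC and 169 and 172 CPM in control cells.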

How the results depend on the processing

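The calls for Dusp4, Dusp5 and Dusp10 in unstimulated cells held in 23 of 24 settings each, the exception being the Y-linked covariate, which left 0 of 9 genes called (edgeR, 4 at an unadjusted p under 0.05) and 430 of all genes in place of 1943. Y-linked expression and genotype are largely shared in these 9 mice, with 1 library to separate them. Leaving out 1 mouse gave 1 to 3 called genes in stimulated cells and 0 to 1 for the difference of responses, where the 0 (1 at an unadjusted p under 0.05) came without stimulated control mouse 5. Without the 3 earlier libraries, a setting added after seeing the data like the Y-linked covariate over 13 libraries, 5 genes were called in stimulated cells and 3 for the difference of responses, adding Dusp2 (0.39) and Dusp6 (-0.58) to the former and Dusp1 (0.97) and Dusp5 (0.51) to the latter. Of all genes, 2335 and 743 were called there, in place of 1898 and 856. The causes were not tested.

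The mouse numbers did not pair the unstimulated libraries (correlations of deviations -0.16, 0.35, -0.10 and -0.14), and only mouse 2 correlated best with its own number. The replicate block gave 3 called genes and 1051 of all genes. Over all genes the counts otherwise left 1.5 times the reported value in stimulated cells (1127 when fitted alone, 945 to 2235 without 1 mouse, against 1898) and for the difference of responses (471 at a threshold of 0.05, 334 to 1227 without 1 mouse, against 856).

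With file date as a factor 6 genes were called in unstimulated cells in place of 4, adding Dusp1 and Spry1, and 2710 of all genes in place of 1943. Signs turned for values that were not called as reported. For Dusp1 in unstimulated cells the value became -0.65 with date as a factor and -0.81 in the later date alone, both called, and was -0.92 to 1.54 without 1 mouse. For Spry1 it was 0.49 with the Y-linked covariate and -1.31 to 0.09 without 1 mouse, and for Dusp6 -0.42 to 0.02 without 1 mouse. In stimulated cells Dusp4 went to 0.00 (RLE, DESeq2), 0.02 (thinned), 0.03 (coding transcripts, later unstimulated date), 0.04 (upper quartile, 4 libraries alone) and 0.05 (10 counts in every library), and -0.07 to 0.03 without 1 mouse. Spry1 went to 0.00 (RLE, DESeq2), 0.01 (thinned), 0.03 (coding transcripts, later unstimulated date) and 0.04 (upper quartile, 4 libraries alone), and -0.18 to 0.12 without 1 mouse. Dusp1 went to -0.23 with coding transcripts alone. The Spred2 response of control cells was 0.01 after thinning. Differences of responses turned for Dusp1 (-0.03 with library totals, -0.23 with coding transcripts, -0.70 with the Y-linked covariate over 13 libraries, -1.43 to 1.03 without 1 mouse), Dusp2 (0.02 with 10 counts in every library, 0.33 without the earlier libraries, -0.24 to 0.27 without 1 mouse), Dusp10 (-0.07 with the Y-linked covariate, -0.15 to 0.30 without 1 mouse) and Spry1 (-0.09 to 1.38 without 1 mouse). No value called as reported turned in sign. Thinning every library to the smallest left 3 genes called in stimulated cells and 1643 of all genes. Counts of 0 to 44 per library limit the unstimulated values of Spry1 and Spry2.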
